A study of Homo sapiens with 8 samples.

Results

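The HOX cluster genes of SW480 and SW620 cells are described here from RNA sequencing. The members are all genes whose symbol is HOX, a letter from A to D and a number, which gave 39 of the 40693 symbols in the tables: 11 in the HOXA cluster, 10 in HOXB, 9 in HOXC and 9 in HOXD. The rule for members used names alone, though it was chosen with earlier results of these data known. SW480 and SW620 are established human colorectal adenocarcinoma lines, labelled Dukes' type B for SW480 and Dukes' type C for SW620. The 8 libraries are 3 of SW620 with a short hairpin RNA against FOXA2 (shFOXA2), 3 of SW620 with a control hairpin (shNC), 1 of untreated SW620 and 1 of untreated SW480. Both hairpin groups were made by lentiviral delivery of a U6-driven hairpin together with a puromycin resistance gene and mCherry, and were grown as stable populations under puromycin, so the untreated lines lack the vector and the selection that both hairpin groups share. The labels list more than 1 target site for FOXA2, and the sample titles of the shFOXA2 libraries carry the number 1. Nothing in the labels says that replicates are separate cultures, so p-values measure only the spread between these libraries.

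HOX genes encode homeodomain transcription factors that lay down position along the body axis. They lie in 4 clusters, and genes with the same number in different clusters are paralogues that descend from a common ancestral gene. Low numbers (anterior, 1 to 3) lie at the 3′ end of a cluster and act toward the head, central genes (4 to 8) act in the trunk, and posterior genes (9 to 13), at the 5′ end, act toward the tail and, in the gut, toward the hindgut and colon. HOX proteins bind DNA together with PBX, MEIS and PKNOX cofactors; Polycomb proteins hold the clusters silent, trithorax proteins keep them active, and retinoic acid and CDX factors switch genes on during development. FOXA2, the gene targeted by the hairpin, is a forkhead pioneer factor of endoderm.

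Total counts were 7478411 to 13076566 in the 6 hairpin libraries, 95935348 in untreated SW620 and 72323506 in untreated SW480. FOXA2 had 30.3, 29.3 and 22.2 CPM (counts over the library total after TMM scaling, edgeR's correction for library composition) in shFOXA2, against 52.5, 49.0 and 51.9 CPM in shNC. Its log2 fold change was -0.91 ± 0.09 (SE), and the groups did not overlap, shFOXA2 being lower in each library (edgeR quasi-likelihood test, Benjamini-Hochberg adjusted p = 6.88e-10). In the untreated lines FOXA2 had 7882 counts in SW620 and 319 in SW480, an 18-fold difference. Replicate 1 of shFOXA2 stood apart, with 62 genes at least 4-fold above every other hairpin library; replicate 1 of shNC had 14 such genes, the other 4 hairpin libraries had 0, and none of these genes was a HOX gene. Markers of colorectal epithelium had a summed level of 1610 to 2330 RPKM (reads scaled by gene length and library total) in the 8 libraries, with 9 or 10 of 11 markers above 3 counts in each group; CDX1 was at 0 in both hairpin groups and in SW480, and KRT20 in SW480. Fibroblast markers moved with the hairpin groups: their summed level was 4.51 to 5.22 RPKM in shFOXA2, against 3.05 to 3.41 RPKM in shNC, and the groups did not overlap. In each hairpin group 3 of the 6 fibroblast markers were above 3 counts. In the untreated lines their sum was 2.71 RPKM in SW620 and 0.332 RPKM in SW480, and COL1A2 and COL3A1 were at 0 in all groups. Hepatocyte markers summed to 4.25 to 6.14 RPKM in shFOXA2, against 4.46 to 4.96 RPKM in shNC, and to 4.08 RPKM in SW620 and 14.8 RPKM in SW480, with TTR at 0 throughout. Leukocyte markers summed to 6.44 to 9.23 RPKM in shFOXA2, against 6.13 to 7.62 RPKM in shNC, and to 3.21 RPKM in SW620 and 2.2 RPKM in SW480. Endothelial markers summed to at most 0.109 RPKM. The part of these markers in the results was not tested. In whole cultures, fewer cells that express a gene and less RNA per cell cannot be told apart.

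Each cluster runs in a single orientation, with paralogue number falling along the transcribed strand. In GENCODE release 29 on GRCh38, HOXA spans chr7:27092993-27200106 on the minus strand (107.1 kb), HOXB spans chr17:48528526-48729178 on the minus strand (200.7 kb), HOXC spans chr12:53938765-54056030 on the plus strand (117.3 kb), and HOXD spans chr2:176092891-176190907 on the plus strand (98.02 kb). That build differs from the hg19 named in the submitters' processing notes. The genes are packed closely, and 8 members share exonic bases with another member on the same strand in that annotation: HOXB3 shares 433 with HOXB6 and 159 with HOXB4, HOXC6 shares 484 with HOXC4 and 73 with HOXC9, and HOXD10 shares 452 with HOXD11. With any other gene on the same strand, member or not, 18 members share exonic bases. In addition, 19 members share exonic bases with a gene on the opposite strand, often an antisense RNA of the cluster. The sources used here do not give the use of strand in counting, so values of such neighbours are uncertain.

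Levels between genes are compared in RPKM, which is per length. HOXB and HOXA genes carried most of the HOX RNA, and HOXD genes carried little. HOXB made up 50.4% to 51.9% of the summed HOX RPKM in shFOXA2, 50.6% to 52.8% in shNC, 55.7% in SW620 and 51.6% in SW480. HOXA followed with 29.3% to 35.8% over all 8 libraries and HOXC with 12% to 13.8%. HOXD had 0.770% to 0.934% in shFOXA2, 1.14% to 1.24% in shNC, 1.26% in SW620 and 3.11% in SW480, so the largest HOXD share was that of SW480. The summed HOXD level was 2.11 ± 0.31 RPKM in shFOXA2 and 3.51 ± 0.19 RPKM in shNC (SD, n = 3 each), and it was 3.98 RPKM in SW620 and 10.3 RPKM in SW480. Most of this sum was HOXD9 alone in shFOXA2 (mean 1.65 RPKM), shNC (mean 2.95 RPKM) and SW620 (3.12 RPKM). In SW480, HOXD10 and HOXD11 had 3.57 and 2.69 RPKM, and HOXD9 had 1.70 RPKM.

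The highest levels in every group lay in the middle of HOXB and at HOXA9. HOXA9, a factor of blood progenitors and acute myeloid leukaemia, had 38.0, 35.6 and 35.4 RPKM in shFOXA2, 47.1, 46.1 and 46.9 in shNC, 38.9 in SW620 and 39.3 in SW480. HOXB8 had 24.95, 26.2 and 21.7 RPKM in shFOXA2, 36.3, 37.7 and 35.0 in shNC, 28.7 in SW620 and 32.1 in SW480. HOXB7 had 25.7 to 28.7 RPKM in shFOXA2, 26.8 to 33.7 in shNC, 32.4 in SW620 and 39.5 in SW480. For HOXA9 and HOXB8 the shFOXA2 values lay below the shNC values with both untreated lines in between, and for HOXB7 the 2 hairpin groups overlapped. HOXB6 had 19.2 to 21.8 RPKM in shFOXA2, 22.9 to 25.2 in shNC, 35.2 in SW620 and 31.7 in SW480. At the ends of HOXB the levels were lower: HOXB13, a gene of the prostate and distal colon, had 0.656 to 0.807 RPKM in shFOXA2, 0.523 to 0.794 in shNC, 0.869 in SW620 and 1.95 in SW480. HOXB1 stayed at 0 or 1 count in every hairpin library, with 2 counts in SW620 and 0 in SW480.

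HOXA and HOXC each had their peak among the posterior genes. HOXA7 reached 14.9 to 17.3 RPKM in shFOXA2, 13.8 to 14.4 in shNC, 15.1 in SW620 and 17.3 in SW480, and HOXA10, a gene of uterine development, reached 11.6 to 12.99 in shFOXA2, 12.8 to 13.2 in shNC, 11.6 in SW620 and 9.16 in SW480. HOXC10, which patterns lumbar motor neurons in mouse, was the highest HOXC gene in all groups, with 9.81 to 11.6 RPKM in shFOXA2, 15.3 to 16.1 in shNC, 16.2 in SW620 and 10.7 in SW480. Level did not follow position in a simple order. The Spearman rho of RPKM with paralogue number in shFOXA2, shNC, SW620 and SW480 was 0.14, 0.31, 0.31 and 0.28 in HOXA (n = 11 genes), 0.47, 0.49, 0.44 and 0.37 in HOXB (n = 10), 0.10, 0.07, 0.05 and -0.52 in HOXC (n = 9), and -0.32, -0.29, 0.15 and 0.48 in HOXD (n = 9). These are descriptions of genes that share a library and an annotation. In the count of members with more than 3 counts in every library of a group, shFOXA2 had 31 of 39, shNC 30, SW620 37 and SW480 37. After thinning all libraries to the shallowest total the counts were 30, 30, 32 and 34.

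**Figure D1:**
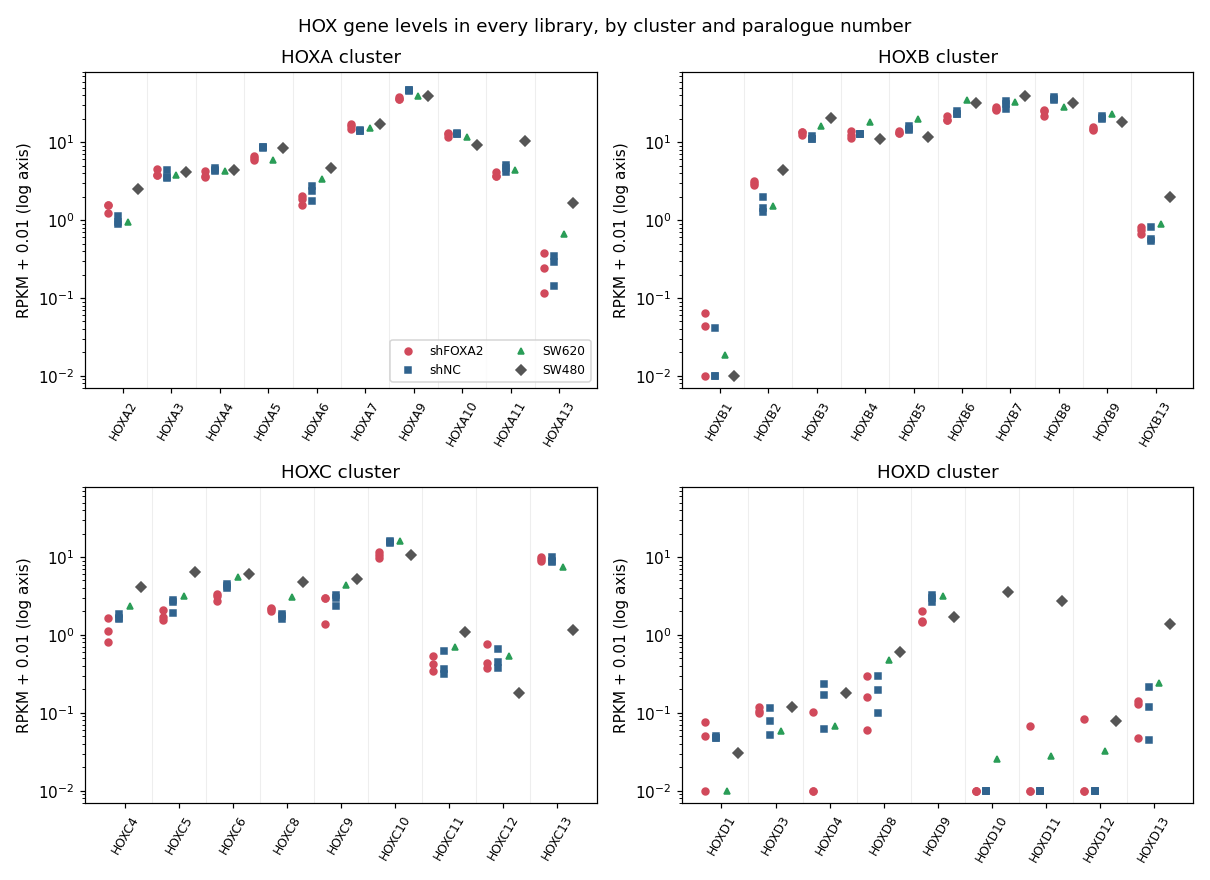
Deposited RPKM (with 0.01 added, log axis) of the HOX genes reported here in all 8 libraries, 1 panel for each cluster and genes ordered by paralogue number; red circles are shFOXA2 (n = 3), blue squares shNC (n = 3), green triangles SW620 and grey diamonds SW480 (1 library each). Points on the lowest level have 0 counts. HOXA9 and the middle of HOXB lie highest, and HOXD10 and HOXD11 stand at 3.57 and 2.69 RPKM in SW480 alone.

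The first comparison concerned the 2 untreated lines, 1 library each, so it has no replicate check and no test; exact 95% intervals cover counting error only. Counts are printed as deposited, and folds are corrected for depth, since the SW620 library is deeper. Folds printed for single genes have no CPM added, so a gene past a threshold by its fold may be missing from the counts by threshold. A member was counted where the higher library had at least 20 counts, which held for 35 of 39. On log2 CPM with 1 CPM added, 26 of the 35 were below 0, that is higher in SW480, and the median was -0.33, against 0.02 over the 21343 genes counted. At 4-fold, 1 member was higher in SW620 (2.86% of the 35, where 2.27% of all genes were) and 2 were higher in SW480 (5.71%, against 2.87% of all genes). At 2-fold, 1 was higher in SW620 (2.86%, against 7.99%) and 8 were higher in SW480 (22.9%, against 8.85% of all genes), among them HOXA2, HOXA11, HOXA13, HOXB2, HOXD10, HOXD11 and HOXD13. The share past 2-fold in SW480 lay above the share of all genes, as a description without a test. The count past 4-fold depends on the CPM added: it was 3 with 1 CPM, 4 with 0.1 CPM and 0 with 5 CPM.

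The largest differences lay in the posterior HOXD genes. HOXD10 (chr2:176108790-176119942) and HOXD11 (chr2:176104216-176109754) pattern the limbs and lower trunk. HOXD10 had 4 counts in SW620 and 696 in SW480, 239-fold higher in SW480 (95% interval 92.9 to 879). HOXD11 had 4 counts in SW620 and 458 in SW480, 157-fold higher in SW480 (61.0 to 579). The hairpin libraries, which derive from SW620, had 0 counts of HOXD10 in all 6 and a single count of HOXD11 in 1 shFOXA2 library. HOXD13, a gene of digits and hindgut, had 49 counts in SW620 and 221 in SW480, 6.19-fold higher in SW480 (4.53 to 8.62), although with 1 CPM added its log2 ratio was -1.45 and short of 4-fold. Of their neighbours, HOXD12 had 4 counts in SW620 and 9 in SW480, and HOXD8 had 117 in SW620 and 112 in SW480 (1.31-fold higher in SW480, 1.01 to 1.72). HOXD9, next to HOXD10 on its 3′ side, ran the other way, with 724 counts in SW620 and 297 in SW480 (1.78-fold higher in SW620, 1.55 to 2.04). HOXD3 had 26 counts in SW620 and 44 in SW480, HOXD4 had 8 in SW620 and 18 in SW480, and HOXD1 had 0 in SW620 and 3 in SW480.

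The promoters of HOXD11 and HOXD10 are shown because these are the 2 genes that differ most between the lines. They run from 250 bases before to 50 after the start, from RefSeq on GRCh38.p14; HOXD11 is chr2:176107030-176107329 (plus strand) and HOXD10 is chr2:176116528-176116827 (plus strand). Capitals mark a match to the HOX with PBX motif TGATNNAT, on either strand.
HOXD11: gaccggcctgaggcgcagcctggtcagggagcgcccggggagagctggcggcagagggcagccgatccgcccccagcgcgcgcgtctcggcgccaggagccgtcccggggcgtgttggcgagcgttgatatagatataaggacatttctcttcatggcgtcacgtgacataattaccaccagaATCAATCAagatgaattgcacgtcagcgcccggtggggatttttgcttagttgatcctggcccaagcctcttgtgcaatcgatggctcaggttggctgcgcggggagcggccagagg
HOXD10: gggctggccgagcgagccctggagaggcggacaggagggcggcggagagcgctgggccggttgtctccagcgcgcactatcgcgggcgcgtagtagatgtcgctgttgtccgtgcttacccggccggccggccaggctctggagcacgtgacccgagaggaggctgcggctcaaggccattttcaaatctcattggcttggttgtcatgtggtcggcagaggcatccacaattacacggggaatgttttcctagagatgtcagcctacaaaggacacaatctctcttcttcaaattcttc
A set of 4 motifs was searched on both strands in the 35116 RefSeq promoters, of which 27 belong to 20 HOX genes: the forkhead TGTTTAC (2 of the 27, HOXC4 and HOXC5, which share a window, against 3.42% of all promoters), the caudal TTTATG (3 of 27, against 10.6%), the TATA box TATAAA (5 of 27, against 11.5%) and TGATNNAT (3 of 27, against 7.40%). Read on the opposite strand, the caudal motif is CATAAA and shares the letters ATAAA with the TATA box. The other HOX genes have no window in this set, so the motif counts do not cover them. HOXB1 is the only HOXB gene with a window. Of the members called in the hairpin comparison below, only HOXA7 and HOXA9 have one. HOXD11 held the HOX with PBX motif. HOXD10 held none of the 4 in this window. The promoters were rich in CG dinucleotides: the observed over expected CpG ratio had a median of 0.849 in the 27 HOX windows and 0.579 in all windows.

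HOXC13 was the member that stood out in the other direction. It is a gene of hair follicles and nails, at chr12:53938765-53946544. It had 1738 counts in SW620 and 203 in SW480, 6.24-fold higher in SW620 (95% interval 5.39 to 7.25). In HOXC the log2 ratio of SW620 over SW480 rose with paralogue number (Spearman rho 0.82, n = 9, a description): HOXC4 was 1.82-fold higher in SW480 (1.64 to 2.03), HOXC5, with 546 counts in SW620 and 845 in SW480, was 2.12-fold higher in SW480 (1.91 to 2.37), HOXC10, with 3629 in SW620 and 1805 in SW480, was 1.46-fold higher in SW620 (1.38 to 1.55), and HOXC12, with 168 counts in SW620 and 41 in SW480, was 2.98-fold higher in SW620 (2.11 to 4.31). The same rho was 0.14 in HOXA (n = 11), 0.08 in HOXB (n = 9) and -0.54 in HOXD (n = 6). With 1 CPM added, the log2 ratios of HOXC12 and HOXC5 were 0.79 and -0.97, both short of 2-fold. HOTAIR, a long noncoding RNA of the HOXC cluster, had 271 counts in SW620 and 1920 in SW480, 9.73-fold higher in SW480 (8.56 to 11.1). HOXD-AS1, an antisense RNA of HOXD, had 52 counts in SW620 and 1507 in SW480, 39.8-fold higher in SW480 (30.2 to 53.5). HOXC-AS5, an antisense RNA of HOXC, had 259 counts in SW620 and 44 in SW480, 4.29-fold higher in SW620 (3.11 to 6.04).

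The anterior members were higher in SW480. HOXA2, which specifies the second branchial arch, had 188 counts in SW620 and 373 in SW480, 2.72-fold higher in SW480 (2.28 to 3.26). HOXB2, a gene of hindbrain patterning, had 497 counts in SW620 and 1090 in SW480, 3.01-fold higher in SW480 (2.71 to 3.35). All 6 counted anterior members had a ratio above 1 in favour of SW480, with HOXA3 at 1.11-fold and HOXB3 at 1.31-fold. Among central members, 11 of 14 were below 0, and HOXB4 and HOXB5 were higher in SW620 by 1.58-fold (1.51 to 1.65) and 1.63-fold (1.54 to 1.73). Of posterior members, 9 of 15 were below 0, with HOXA11 (980 counts in SW620 and 1726 in SW480) at 2.42-fold (2.23 to 2.62) and HOXA13 at 2.58-fold (2.24 to 2.98) in favour of SW480. The genes with the highest RPKM differed less between the lines. HOXB7 had 4725 counts in SW620 and 4344 in SW480, 1.26-fold higher in SW480 (1.21 to 1.32). HOXB8 had 5814 in SW620 and 4910 in SW480, 1.16-fold higher in SW480 (1.12 to 1.205), and HOXB6 had 13769 in SW620 and 9354 in SW480, 1.07-fold higher in SW620 (1.04 to 1.10). None of these HOXB genes reached the 2-fold threshold. HOXA9 had 9520 in SW620 and 7249 in SW480, 1.05-fold higher in SW480 (1.01 to 1.08), HOXA7 had 3488 in SW620 and 3024 in SW480, 1.19-fold higher in SW480 (1.13 to 1.2501), and HOXA10 had 4140 in SW620 and 2457 in SW480, 1.23-fold higher in SW620 (1.17 to 1.29). HOXC6 had 1864 in SW620 and 1538 in SW480, 1.13-fold higher in SW480 (1.06 to 1.21).

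**Figure D2:**
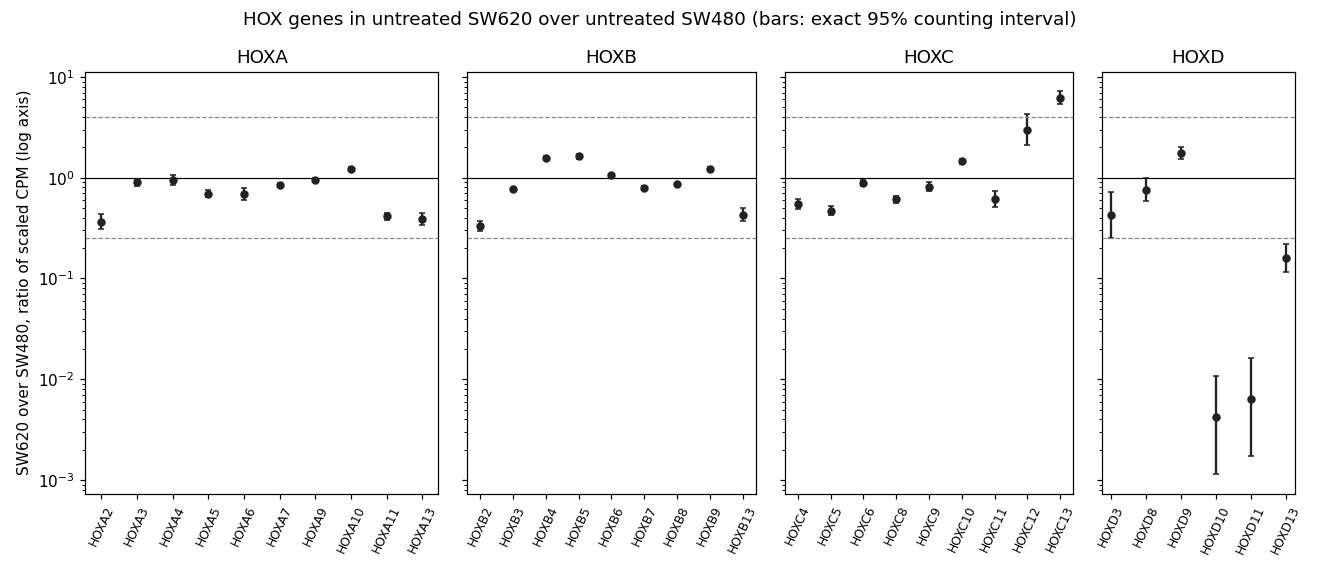
Ratio of SW620 over SW480 in scaled CPM (log axis) for the counted HOX genes reported here, by cluster and paralogue number; points are the 2 libraries' ratio, bars the exact 95% counting interval, dashed lines 4-fold. HOXD10 and HOXD11 lie far below 1, HOXC13 is the only point above the upper dashed line, and most others lie between the dashed lines.

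The lists of genes that act with or on HOX genes are given by how many were past 4-fold between the lines. These are small counts, and no difference between lists is read from them. The lists were chosen with results of these data known. Of 27 counted Polycomb genes and 13 counted genes of the trithorax and histone demethylase list, 0 were past 4-fold in either direction. At 2-fold, 1 Polycomb gene was higher in SW620 and 0 in SW480, against 7.99% and 8.85% of all genes. In the trithorax and histone demethylase list 0 were past it. Past 4-fold, the cofactor list had 1 of 8 counted genes higher in SW620 and 1 in SW480, the retinoic acid list 2 of 15 in SW620 and 1 in SW480, and the ParaHox list 0 of 3 in SW620 and 2 in SW480, against 2.27% and 2.87% of all genes. The genes named next were chosen after their values were seen. Among the cofactors, PBX3 had 208 counts in SW620 and 1127 in SW480, 7.44-fold higher in SW480 (6.41 to 8.67). CDX2, the caudal factor of intestinal identity, had 510 counts in SW620 and 4150 in SW480, 11.2-fold higher in SW480 (10.2 to 12.3), and PDX1, a ParaHox gene of duodenum and pancreas, had 62 in SW620 and 627 in SW480. In the retinoic acid list, RARB, a retinoic acid receptor and its own target, had 883 counts in SW620 and 12 in SW480, 53.6-fold higher in SW620 (30.5 to 104), ALDH1A2, an enzyme that makes retinoic acid, had 391 in SW620 and 4 in SW480, and CRABP2, a carrier of retinoic acid, had 1690 in SW620 and 13292 in SW480.

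The second comparison asked what changed in SW620 cells with the FOXA2 hairpin. Of the 39 HOX genes, 30 passed the filter on low counts and entered the fit; the 9 that did not are HOXB1 and all HOXD genes but HOXD9. Of the 30, 12 were called at an adjusted p of 0.05 (40.0%), which is near the 39.0% called over all 16100 genes. There were 4 higher in shFOXA2 (13.3%, against 19.2% of all genes) and 8 lower (26.7%, against 19.8%). In 6 of the 30 every shFOXA2 library lay above every shNC library (24.2% of all genes did), in 9 every one lay below (24.5% of all genes did), and 15 overlapped. The median log2 fold change was -0.16, against 0.01 over all genes, and the median size over all genes was 0.21. The number called was close to the background, so the results below are which members moved and where they lie in the clusters. The fibroblast marker sum was also higher in every shFOXA2 library than in every shNC library, and its part in these calls was not tested. Exact two-sided permutation tests on log2 CPM gave p = 0.1 for each of the 12, the smallest that the 10 splits of 3 against 3 allow.

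**Figure D3:**
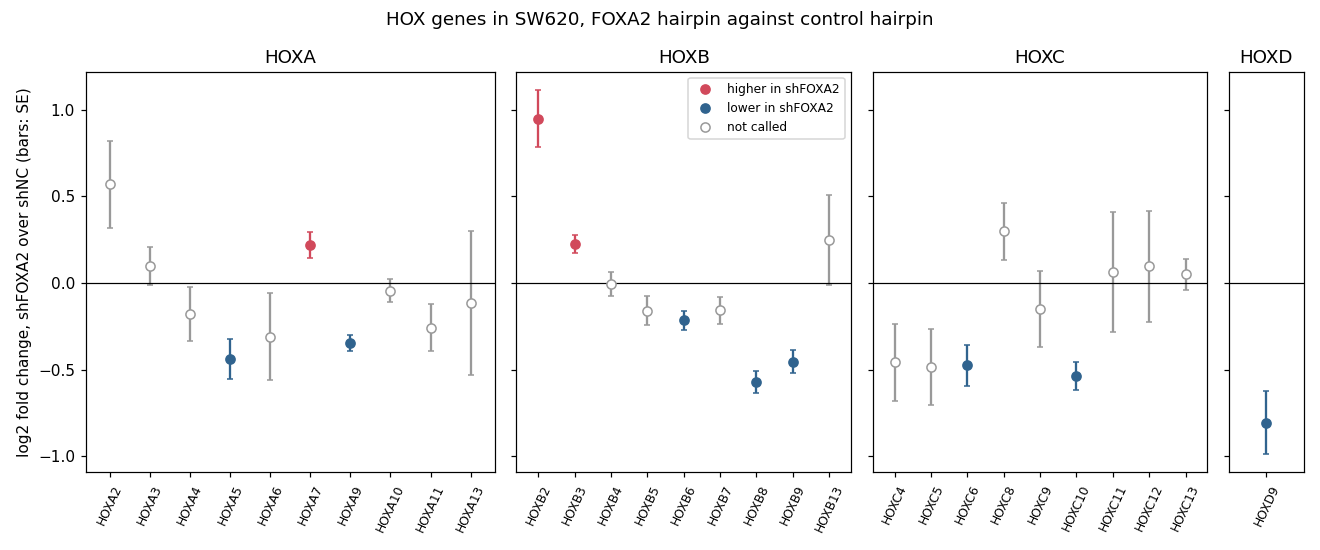
Log2 fold change of shFOXA2 over shNC (edgeR; bars are SE) for the tested HOX genes reported here, by cluster and paralogue number; filled red points were called higher, filled blue points called lower, and open grey points not called. HOXB2 lies highest, at 0.95, and HOXD9 lowest, at -0.81.

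The calls are given here by position, as a description of few genes per class. All 5 tested anterior members had a log2 fold change above 0, and 3 were called higher and 0 lower. That is 60% called, against 39.0% of all genes, in a class of only 5 tested genes. Of 13 central members 1 was called higher and 4 lower, and of 12 posterior members 0 were called higher and 4 lower. Over all genes tested 39.0% were called, 19.2% higher and 19.8% lower; the called shares of central and posterior members, 38.5% and 33.3%, were near or below that background, and nothing is read from them. The medians were 0.57, -0.22 and -0.13. In HOXA and HOXB the fold change was lower at higher paralogue numbers (rho -0.46, n = 11, and -0.47, n = 9), while in HOXC, which has no anterior genes, it was 0.43 (n = 9). These are descriptions of neighbouring genes, not replicates.

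The anterior genes that rose included HOXB2 (chr17:48540894-48544989) and HOXB3 (chr17:48548870-48604912). HOXB2 had 10.45, 9.78 and 10.9 CPM in shFOXA2, against 7.01, 4.85 and 4.31 CPM in shNC. Every shFOXA2 library lay above every shNC library, and the log2 fold change was 0.95 ± 0.17 (SE; edgeR adjusted p = 9.32e-06). HOXB3, which acts in hindbrain and neck patterning, had 102, 94.0 and 100.04 CPM in shFOXA2, against 84.2, 81.1 and 88.8 CPM in shNC. The groups did not overlap and the log2 fold change was 0.22 ± 0.05 (edgeR adjusted p = 0.000379); the exons it shares with HOXB6 and HOXB4 limit how its reads are assigned. HOXA2 had 3.26, 3.26 and 2.50 CPM in shFOXA2, against 1.87, 1.92 and 2.28 CPM in shNC. Its groups did not overlap either, but it was not called (log2 fold change 0.57 ± 0.25, edgeR adjusted p = 0.0699). HOXA3, a gene of thymus and parathyroid development, had 16.1 to 19.9 CPM in shFOXA2 and 15.1 to 18.9 in shNC, and the groups overlapped.

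The promoter of HOXA2 is printed as that of an anterior gene, at chr7:27102634-27102933 (minus strand), with the HOX with PBX match in capitals.
HOXA2: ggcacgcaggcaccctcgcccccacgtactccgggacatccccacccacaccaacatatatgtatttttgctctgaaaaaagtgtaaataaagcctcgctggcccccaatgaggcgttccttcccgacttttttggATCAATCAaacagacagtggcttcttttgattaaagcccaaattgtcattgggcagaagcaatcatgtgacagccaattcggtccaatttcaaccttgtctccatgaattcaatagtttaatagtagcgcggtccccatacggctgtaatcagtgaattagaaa

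Among central genes, HOXB8 (chr17:48611377-48614939) had the lowest p among those that fell. It had 53.2, 56.2 and 46.0 CPM in shFOXA2, against 78.1, 79.3 and 72.9 CPM in shNC. The groups did not overlap, and the log2 fold change was -0.57 ± 0.06 (edgeR adjusted p = 1.10e-09). HOXC6, which shares exons with HOXC4, had 11.8, 11.4 and 9.51 CPM in shFOXA2, against 14.4, 15.2 and 16.0 CPM in shNC. Here too the highest shFOXA2 value was below the lowest shNC value, at -0.48 ± 0.12 (edgeR adjusted p = 0.00116). HOXA5, a gene of lung and gut patterning in mouse, had 10.3, 11.4 and 10.6 CPM in shFOXA2, against 14.6, 14.5 and 14.5 CPM in shNC, with no overlap and a log2 fold change of -0.44 ± 0.12 (edgeR adjusted p = 0.00228). HOXB6 had 89.9, 79.6 and 79.4 CPM in shFOXA2, against 105, 93.0 and 92.4 CPM in shNC; all shFOXA2 values lay below all shNC values, and the fold change was small at -0.22 ± 0.06 (edgeR adjusted p = 0.00234).

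HOXA7 was the central gene that rose, with 42.0, 39.7 and 36.1 CPM in shFOXA2, against 33.9, 33.1 and 34.2 CPM in shNC. The groups did not overlap, and the log2 fold change was 0.22 ± 0.08 (edgeR adjusted p = 0.0189). Its call was the only one of the 12 that was lost under an alternative: the adjusted p was 0.143 without shFOXA2 replicate 1, 0.0650 without shNC replicate 2, 0.108 by DESeq2 and 0.0614 with no filter on low counts. HOXA7 shares 1507 exonic bases with the antisense gene HOXA-AS3, which had 32.5 to 35.5 CPM in shFOXA2 and 30.4 to 31.7 in shNC and was not called. The uncalled central members ran from -0.48 (HOXC5) to 0.30 (HOXC8). HOXC5 was called without shNC replicate 3 (edgeR adjusted p = 0.0270), HOXC4 without shFOXA2 replicate 1 (edgeR adjusted p = 0.00947), and HOXB7 without shNC replicate 3 (edgeR adjusted p = 0.0160) or with no filter. HOXB4, a factor that expands blood stem cells, had 43.7 to 52.2 CPM in shFOXA2 and 46.7 to 49.4 in shNC, with a log2 fold change of -0.00 ± 0.07. HOXA4, HOXA6 and HOXB5 had log2 fold changes of -0.18, -0.31 and -0.16.

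Among posterior genes, 4 fell. HOXD9 (chr2:176122720-176124937), the only HOXD gene at a level that could be tested, had 4.93, 3.53 and 3.61 CPM in shFOXA2, against 7.24, 7.93 and 6.27 CPM in shNC. The 2 groups were apart, shFOXA2 lower, with a log2 fold change of -0.81 ± 0.18 (edgeR adjusted p = 0.000402). HOXC10 had 27.2, 25.1 and 22.9 CPM in shFOXA2, against 38.2, 35.9 and 35.3 CPM in shNC, without overlap and at -0.54 ± 0.08 (edgeR adjusted p = 8.87e-07). HOXB9, a gene of the thoracic skeleton in mouse, had 42.3, 39.9 and 39.9 CPM in shFOXA2, against 59.3, 54.7 and 53.6 CPM in shNC, again without overlap (-0.46 ± 0.07, edgeR adjusted p = 3.36e-07). HOXA9 had 97.8, 92.1 and 90.6 CPM in shFOXA2, against 122, 117 and 118 CPM in shNC. The groups did not overlap, and the log2 fold change was -0.35 ± 0.05 (edgeR adjusted p = 8.52e-08). HOXA10 beside it, at 43.6 to 48.3 CPM in shFOXA2 and 47.3 to 48.6 in shNC, had a log2 fold change of -0.04 ± 0.07, and HOXC13 had 22.3 to 24.3 CPM in shFOXA2 and 21.0 to 24.4 in shNC. The other 6 uncalled posterior members, HOXA11, HOXA13, HOXB13, HOXC9, HOXC11 and HOXC12, lay between -0.26 and 0.25, and in all 6 the groups overlapped.

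The HOXA9 promoter, at chr7:27165488-27165787 (minus strand), is shown as that of the HOX gene with the highest RPKM in the hairpin and SW620 libraries. Capitals mark letter matches to the caudal motif, here read on the opposite strand, and to the TATA box motif TATAAA. Matches were searched anywhere in the window, and their distance to the start was not considered.
HOXA9: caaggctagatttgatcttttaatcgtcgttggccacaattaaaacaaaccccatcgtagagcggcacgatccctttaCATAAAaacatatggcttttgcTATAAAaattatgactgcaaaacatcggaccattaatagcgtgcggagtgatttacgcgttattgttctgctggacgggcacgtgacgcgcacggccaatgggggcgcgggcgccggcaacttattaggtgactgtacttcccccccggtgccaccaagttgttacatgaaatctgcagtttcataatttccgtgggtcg

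**Figure D4:**
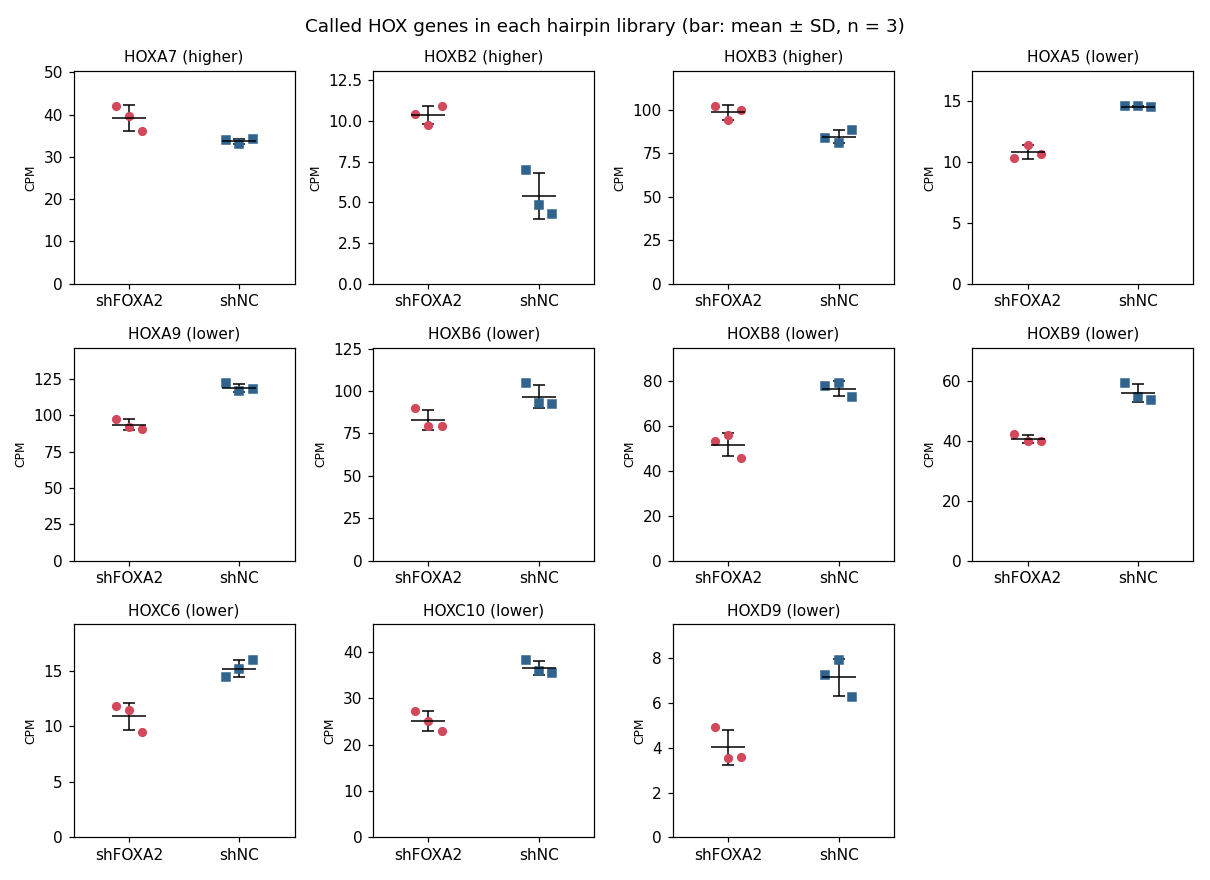
CPM of the called HOX genes reported here in each hairpin library, shFOXA2 (red circles) left of shNC (blue squares), axes from 0; the long bar is the mean and the error bar the SD (n = 3). In each panel the 3 shFOXA2 points lie wholly above or wholly below the 3 shNC points.

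The miR-196 microRNAs inside the clusters share a seed, which differs from that of miR-10a; the seeds (bases 2 to 8, in capitals) are printed because their target letters occur in HOX transcripts.
hsa-miR-196a-5p: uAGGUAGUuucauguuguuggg
hsa-miR-196b-5p: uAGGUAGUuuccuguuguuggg
hsa-miR-10a-5p: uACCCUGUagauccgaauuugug
The miR-196 forms, from HOXB (MIR196A1), HOXC (MIR196A2) and HOXA (MIR196B), share the seed AGGUAGU; miR-10a-5p comes from HOXB. The sequences are from RefSeq on GRCh38.p14. The 7-base match of the miR-196 seed occurs in the 3′ UTR of 9 of the 39 members (among them HOXA5, HOXA7, HOXA9, HOXB1, HOXB6, HOXB7, HOXB13 and HOXC8), and in 7.75% of the 19573 genes searched. The match of the miR-10a seed occurs in 3 members, HOXA3 and HOXB3 among them, and in 13.4% of genes. HOXB8, a known target of miR-196a, holds a site that pairs over all 22 bases, with 21 Watson-Crick pairs and 1 G:U pair (the lower-case base): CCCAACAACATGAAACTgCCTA. Long RNA libraries do not measure mature microRNAs, and of the 6 genes 2 were tested: MIR10A had 2.58 to 3.80 CPM in shFOXA2 and 2.16 to 3.04 in shNC, and MIR196B had 1.22 to 2.09 in shFOXA2 and 1.47 to 3.23 in shNC. Neither was called. The counted MIR10A entry is 2630 bases long and the MIR196B entry 85. In GENCODE release 29 both genes share exonic bases with a HOX gene on the same strand (110 with HOXB4 and 84 with HOXA9). The MIR10A gene of that release may differ from the counted entry. Of 13 tested cluster long noncoding RNAs, 0 were called higher and 1 lower, HOXB-AS3, which shares exonic bases with HOXB3, HOXB5 and HOXB6, at -0.20 ± 0.08 (edgeR adjusted p = 0.0453). Its groups overlapped, at 36.0, 30.8 and 29.2 CPM in shFOXA2, against 38.8, 37.9 and 34.3 CPM in shNC. HOTAIR had 0.701 to 1.59 CPM in shFOXA2 and 1.00 to 1.17 CPM in shNC.

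A stretch of the first hairpin's target site, shown because an earlier ranking of these data picked its 7-base parts in 3′ UTRs, is in capitals: gaacggcatgAACACGTAcat. Those parts occur in the 3′ UTR of HOXA11 and HOXB3 among the 39 members and in 5.32% of the 19573 genes. HOXB3 was higher in shFOXA2, and HOXA11 had 9.70, 8.69 and 8.41 CPM in shFOXA2 and 11.9, 10.8 and 9.44 CPM in shNC, overlapping.

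Cofactors and chromatin regulators were called in both directions. Of 8 tested TALE cofactors 1 was higher and 1 lower: PBX2 at 0.69 ± 0.08 (edgeR adjusted p = 8.01e-10) and PKNOX1 at -0.41 ± 0.08 (edgeR adjusted p = 2.57e-05). Of 27 Polycomb genes 7 were higher and 7 lower (median 0.06), among them RBBP4, a histone chaperone of several complexes, at -1.24 ± 0.05, CBX6 at -0.71 ± 0.04, BMI1 at 0.80 ± 0.08 and PHF19 at -0.40 ± 0.05. Of 13 genes in the list of trithorax and histone demethylase genes, 4 were higher and 1 lower (median 0.08). The methyltransferases KMT2A at 0.30 ± 0.04, KMT2C at 0.26 ± 0.05 and KMT2D at 0.25 ± 0.05 rose, with the subunit DPY30 at 0.20 ± 0.05. DOT1L, another histone methyltransferase placed in that list, fell at -0.23 ± 0.06. Of 13 retinoic acid genes 2 were higher and 5 lower (median -0.07): the retinol receptor STRA6 at -0.85 ± 0.05, RXRA at -0.62 ± 0.11 and CRABP2 at 0.67 ± 0.10. Of 2 tested ParaHox genes CDX2 was higher, at 0.69 ± 0.08 (41.4, 42.5 and 39.7 CPM in shFOXA2, against 22.9, 24.6 and 28.97 in shNC; edgeR adjusted p = 5.15e-09). Of 14 tested genes that flank the clusters 2 were higher and 4 lower, with HNRNPA1, beside HOXC, at -0.67 ± 0.04 and ATP5G2, SKAP1 and CALCOCO2 at 0.20, -0.27 and -0.30. All of these are log2 fold changes with SE from the edgeR fit. The share of each list called can be read against 19.2% higher and 19.8% lower over all genes.

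The 2 comparisons share no library and can be set side by side. Of the 30 tested members, 9 were higher in shFOXA2 and higher in SW480, 7 were lower in shFOXA2 and higher in SW620, 2 were higher in shFOXA2 and higher in SW620, and 12 were lower in shFOXA2 and higher in SW480. The Spearman rho of the 2 log2 values was -0.33 (n = 30 genes, which share libraries; a description). The 4 members called higher in shFOXA2, HOXA7, HOXB2 and HOXB3 among them, were all higher in SW480, and the 8 called lower were split 4 and 4. Most counted members were higher in SW480 whatever their call (26 of 35), and HOXA7 and HOXB3 were so by only 1.19-fold and 1.31-fold. The same split over all genes was not computed, so nothing is read from these counts. CDX2 was higher in shFOXA2 than in shNC, and higher in SW480 than in SW620. Its level in shNC, at 22.9 to 28.97 CPM, already lay above the 5.24 CPM of untreated SW620, with 58.6 CPM in SW480. The change with the FOXA2 hairpin therefore did not start from the level of untreated SW620. The source of the difference between shNC and untreated SW620 was not tested. HOXC13, the largest difference in favour of SW620, had a log2 fold change of 0.05 ± 0.09 with the hairpin.

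**Figure D5:**
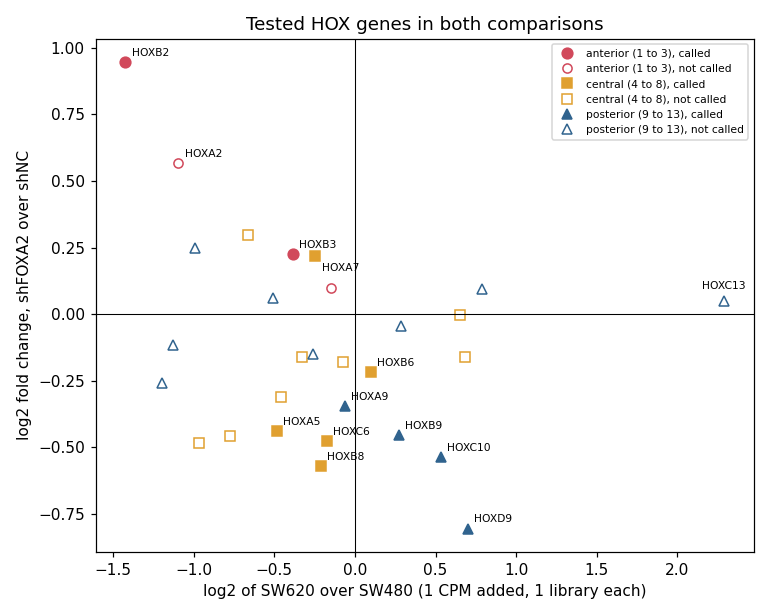
Log2 fold change of shFOXA2 over shNC against log2 of SW620 over SW480 (1 CPM added) for the tested HOX genes reported here; red circles are anterior, yellow squares central and blue triangles posterior genes, filled where called. The anterior genes lie in the upper left, with HOXB2 at 0.95, and HOXC13 stands far right at 2.29.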

How the data were processed

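RNA sequencing of 8 libraries was analysed from deposited tables, 1 per library. Each table lists, for 42713 entries, raw counts per gene, a length and RPKM values as deposited by the authors. For 100% of genes of at least 20 counts, the deposited RPKM could be recomputed from count, length and table total (relative difference at most 0.0001). The submitters' processing notes name HOMER and hg19 without giving their roles. The labels name a directional library kit; the sources used here give no aligner, annotation or strand setting. Where a symbol was listed more than once (256 symbols, HOXC4 among them), the entry with the highest summed count was kept.

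Hairpin libraries were compared in R 4.3.3 by edgeR 4.0.16 (two-sided quasi-likelihood test with the robust option, TMM scaling and the default expression filter), with Benjamini-Hochberg adjustment over all 16100 tested genes at 0.05. Standard errors were derived from the F statistic (log2 fold change over root F). The biological coefficient of variation was 6.59%. Untreated lines were compared as log2 ratios of TMM-scaled CPM with 1 CPM added, among genes reaching 20 counts in either library, with exact 95% intervals for single ratios. The floor of 3 counts is 0.401 CPM in the shallowest library and 0.0313 CPM in the deepest. Locations, exon overlaps and 3′ UTRs came from GENCODE release 29. The rest used Python 3.11.15 (pandas 2.3.3, numpy 2.4.6, matplotlib 3.10.9, scipy 1.17.1).

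The members and lists were chosen with earlier results of these data known. Named members are those called, tested members by value, those past 4-fold between the lines and the 3 highest per cluster, with up to 4 called genes per list by p; other names were chosen after their values were seen. Some items that these rules would name are not reported here, though the counts include them. Same-numbered shFOXA2 and shNC libraries had correlations of deviations of 0.05, -0.05 and 0.03, so the numbers were not taken to pair them. Alternatives were other scalings (total counts, size factors of DESeq2 1.42.0), filters, tests (DESeq2, limma-voom 3.58.1), thresholds, repeated symbols, a replicate block, leaving out each hairpin library, and the added CPM. On simulated counts for the hairpin comparison (16124 genes in the fit, 50 changed per fold), the test called 23 of those changed 1.25-fold, 41 of those changed 1.5-fold, 49 of the 2-fold and 50 of the 4-fold changes, and 8 unchanged genes. Every simulated gene had the same biological coefficient of variation, and changed genes were drawn only above a minimum CPM. The lowest tested members, such as HOXA13, HOXC11 and HOXC12, lie below that minimum, so these numbers need not hold for them.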

Additional observations from a re-analysis of the deposited data

How the results depend on the processing

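The number of HOX genes called between shFOXA2 and shNC was 11 to 14 under all alternatives, against 12, and 11 of the 12 called members kept direction and call in all 16 alternatives; HOXA7 is the exception. With the replicate number as a block, 12 HOX genes and 6139 of all genes were called; the same 12 members were called. Leaving out each hairpin library in turn gave 11 to 14 HOX genes, 5299 to 5872 of all genes and 32 to 36 genes of the related lists. HOXA7 lost its call with no filter (0.19), with DESeq2 (0.21), at an adjusted p of 0.01, and without shFOXA2 replicate 1 (0.16) or shNC replicate 2 (0.20). HOXB7 was called with no filter (-0.19) and without shNC replicate 3 (-0.25), HOXC5 without shNC replicate 3 (-0.64) and HOXC4 without shFOXA2 replicate 1 (-0.81). Some uncalled log2 fold changes near 0 changed sign, in 14 cases. HOXB4 became 0.0019 with limma-voom. Over the libraries left out in turn, HOXB4 ranged from -0.085 to 0.044 (above 0 without shFOXA2 replicate 2, at 0.0080 without replicate 3 and 0.0084 without shNC replicate 1), HOXA3 from -0.018 to 0.20 (below 0 without shFOXA2 replicate 1, at -0.018), HOXC11 from -0.17 to 0.39 (also -0.053 and -0.13 without shNC replicates 1 and 2), HOXC9 from -0.32 to 0.090, HOXA13 from -0.50 to 0.23 (also 0.14 without shNC replicate 3), HOXC12 from -0.29 to 0.35 (also -0.076 without shNC replicate 2) and HOXC13 from -0.0016 to 0.11. Between the lines, genes past 4-fold numbered 2539 with 0.1 CPM added, 479 with 5 CPM and 3595 at 2-fold, against 1098; HOX genes numbered 0 with 5 CPM and 9 at 2-fold, against 3, since adding more CPM shrinks ratios of low genes. The causes of the other changes were not tested. The untreated lines have 1 library each, the hairpin libraries are shallower than both, and HOXD genes other than HOXD9 were too low to test in them.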

Other observations

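A further entry for HOXC4 in the tables, not used for the values above, had 26, 15 and 21 counts in shFOXA2, against 33, 29 and 30 counts in shNC, and 215 counts in SW620 and 363 in SW480. The entry that was used had 54, 23 and 22 counts in shFOXA2, against 65, 57 and 53 counts in shNC, and 617 in SW620 and 819 in SW480. In SW480 the kept entry had 4.16 RPKM and the other 3.01 RPKM.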
